A study of Mus musculus with 2 samples.

Results

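Pigment cells of the hair follicle were followed through 10 genes: Tyr, Tyrp1, Dct, Pmel, Mlana, Gpnmb, Slc45a2, Mc1r, Kit and Mitf. They were taken by gene symbol, as every probe set that the platform annotation assigns to one of these names, which gave 19 probe sets for 10 of the 18193 genes on the array. Expression had been measured on Affymetrix Mouse430_2 arrays at postnatal day 10 in hair follicles of wild-type mice and of mice carrying a dnFGFR2-IIIb transgene, an altered IIIb isoform of fibroblast growth factor receptor 2 whose prefix dn commonly stands for dominant-negative. Each group was 1 array of total RNA from a pool of roughly 300 follicles, to which 3 mice of separate litters gave around 100 apiece. The strain, the sex of the mice and the promoter of the transgene are not stated in the labels. With 1 array per group there is no replicate spread, so each difference below describes these arrays and carries no test.

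Melanocytes sit in the hair bulb during hair growth and pass melanin to the keratinocytes that form the shaft. Alpha-melanocyte-stimulating hormone, a peptide cut from the product of Pomc, binds the receptor Mc1r and raises cyclic AMP, which acts through CREB on the melanocyte form of Mitf. The transcription factor Mitf in turn binds short elements, called M-boxes, upstream of the genes for the melanin enzymes, while agouti protein blocks Mc1r and shifts the pigment from eumelanin to pheomelanin. Kit, the receptor for Kit ligand, is needed for melanocyte migration and survival.

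Upstream sequences are shown for the members in which letters matching motifs of this circuit were found. They are the 250 bases before the RefSeq start of transcription in GRCm38.p6, read 5′ to 3′ on the strand of the gene. RefSeq entries were matched for 7 of the 10 members, Tyr, Tyrp1, Dct, Mc1r, Mitf, Kit and Gpnmb, and not for Pmel, Mlana and Slc45a2. Tyr lies at chr7:87493513-87493762 (minus strand), Tyrp1 at chr4:80833963-80834212 (plus strand), Dct at chr14:118052247-118052496 (minus strand) and Mc1r at chr8:123406832-123407081 (plus strand). In these sequences the capitals mark the M-box core TCATGTG, searched on both strands, or the core with 2 further bases on each side where these match the Tyr sequence, AGTCATGTGCT.
Tyr: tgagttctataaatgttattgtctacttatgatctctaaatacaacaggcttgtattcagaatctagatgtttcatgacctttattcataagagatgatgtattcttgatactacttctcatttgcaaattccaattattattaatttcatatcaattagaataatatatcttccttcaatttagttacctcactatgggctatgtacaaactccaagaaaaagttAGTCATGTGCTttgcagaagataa
Tyrp1: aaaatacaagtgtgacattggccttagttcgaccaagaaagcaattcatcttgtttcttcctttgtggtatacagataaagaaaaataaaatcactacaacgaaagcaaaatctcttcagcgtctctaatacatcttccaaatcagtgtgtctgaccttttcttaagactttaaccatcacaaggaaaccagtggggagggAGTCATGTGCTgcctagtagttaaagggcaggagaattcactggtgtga
Dct: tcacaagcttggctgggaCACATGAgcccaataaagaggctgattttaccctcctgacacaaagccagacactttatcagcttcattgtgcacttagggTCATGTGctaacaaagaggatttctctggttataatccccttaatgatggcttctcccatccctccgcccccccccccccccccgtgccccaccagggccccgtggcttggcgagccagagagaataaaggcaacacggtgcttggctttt
Mc1r: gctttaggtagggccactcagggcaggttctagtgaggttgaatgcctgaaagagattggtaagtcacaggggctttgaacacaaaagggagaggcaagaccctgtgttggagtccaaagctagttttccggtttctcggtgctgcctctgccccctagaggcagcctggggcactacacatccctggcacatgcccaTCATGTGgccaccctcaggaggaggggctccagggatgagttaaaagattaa
The 11 letters of the Tyr M-box, read from the Tyr window itself, were also found in Tyrp1, and in 7 of all 32851 upstream windows of this length (0.0213%), Tyr included. Its core was found in 4 of the 7 members, Tyr, Tyrp1, Dct and Mc1r, and in 3.72% of all genes with a window (3.25% of windows). The core began 22 bases before the start in Tyr, 47 in Tyrp1 and 52 in Mc1r. Dct held it at 151 bases and, on the opposite strand, at 232 bases. The letters CACGTG, another form of E-box, were found in 0 of the 7 members and in 6.86% of genes (6.02% of windows).

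Mitf has 3 starts in the RefSeq table, of which the last, at chr6:97991533-97991782 (plus strand), is the one shown. Its capitals mark the cyclic AMP response element TGACGTCA, a palindrome that CREB binds.
Mitf: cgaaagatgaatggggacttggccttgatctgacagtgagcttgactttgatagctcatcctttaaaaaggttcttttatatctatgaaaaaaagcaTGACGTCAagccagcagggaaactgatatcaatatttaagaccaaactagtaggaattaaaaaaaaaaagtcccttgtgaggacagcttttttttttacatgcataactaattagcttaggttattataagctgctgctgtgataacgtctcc
This element began 153 bases before that last start. It was absent from the windows at the earlier Mitf starts and from those of the other 6 members. It was found in 1.77% of genes (1.55% of windows). A match describes letters only, and the arrays measured no binding.

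The tissue label and the depth of signal bore on how these genes could be read. Signals are linear intensities in arbitrary units, and a floor of 10.5, the 40th percentile of both arrays, was used for values too dim to compare. On both arrays 19 of 19 member probe sets exceeded that floor. The melanocyte markers Tyr, Tyrp1, Dct, Pmel and Mlana all read at least 857 at their brightest probe sets, and the hair matrix and cortex genes were bright, so that RNA of the follicle and of its pigment cells was present in both pools. These melanocyte markers summed to 13109 in the wild-type pool and 11993 in the transgenic one, a log2 ratio of transgenic over wild-type of -0.13. The 3′ to 5′ signal ratio, a measure of RNA integrity, was 0.796 for Gapdh and 1.89 for beta-actin on the wild-type array, and 0.852 and 2.06 on the transgenic one. The pools also differed in Xist, the RNA of the inactive X chromosome, which read 352 and 1146, and its part in the values below was not tested.

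Of the 3 melanin enzymes, Tyrp1 and Dct read close to equal in the pools at their brightest probe sets, and Tyr read somewhat lower in the transgenic pool. Tyr encodes tyrosinase, which catalyses the first and rate-limiting step from tyrosine. Its brightest probe set (1417717_a_at) read 1042 in the wild-type pool and 857 in the transgenic pool, a log2 ratio of transgenic over wild-type of -0.28, or 1.22-fold lower. The dimmer probe set 1456095_at read 123 and 85.2 (-0.53) and 1448821_at read 62.0 and 80.3 (0.37), so that the Tyr probe sets did not share a direction. In bulk follicles, fewer melanocytes and less RNA per melanocyte cannot be told apart.

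Tyrp1, an enzyme of the later eumelanin steps, read 2161 and 2186 with 1415861_at, a log2 ratio of 0.02. A second probe set, 1415862_at, read 1778 and 1735 (-0.04). The third, 1439409_x_at, read 1693 and 979, a log2 ratio of -0.79. Its suffix marks probes that may bind other transcripts, and it lay 0.81 on the log2 scale below the brightest one. Dct, dopachrome tautomerase, also serves as an early marker of melanoblasts. Its only probe set read 4464 and 4607, a log2 ratio of 0.05. The signs for Tyrp1 and Dct turned negative under equal medians, at -0.13 and -0.10.

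Of the melanosome proteins, Mlana and Gpnmb read lower in the transgenic pool, whereas Pmel lay closer to 1. Pmel forms the amyloid fibrils on which melanin is laid down. It read 3281 and 2975 at its only probe set, a log2 ratio of -0.14, which became 0.05 with equal spiked controls. Mlana encodes MART-1, a small membrane protein that associates with Pmel during melanosome maturation. It read 2160 and 1368 at its only probe set, so that the transgenic signal was 63.3% of the wild-type one (log2 ratio -0.66, 1.58-fold lower). No other probe set could be set beside this value.

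Gpnmb encodes a transmembrane glycoprotein related to Pmel and is also made by macrophages. Its bright probe set, 1448303_at, read 3879 and 2498, a log2 ratio of -0.63 and 1.55-fold lower. The dim one, 1439345_at, read 55.5 and 64.1 (0.21). The Gpnmb difference therefore rests on 1 of its 2 probe sets, and with the mean over both it was -0.21. Macrophage markers on the same arrays had a median log2 ratio of 0.27 over 10 genes, with a summed signal of 246 and 269, and their part in Gpnmb was not tested. Of these macrophage markers 6 of 10 had a ratio over 1, among them Adgre1 (11.8 and 19.3, 0.71) and Lyz2 (21.6 and 32.8, 0.60), while C1qa, C1qb and Mrc1 were under the floor in the wild-type pool and over it in the transgenic one. Cd14 read 22.6 in the wild-type pool and was under the floor in the transgenic one, at least 2.15-fold lower, and Cd68 read 51.7 and 45.3. Csf1r read 73.3 and 74.8 at its brightest probe set, but 44.2 and 14.6 (-1.60) and 36.2 and 49.5 (0.45) at its others.

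Slc45a2, a transporter of the melanosome membrane whose loss lightens the coat, read 190 and 142 with 1451055_at (log2 ratio -0.42, 1.34-fold lower). Its other probe set read 80.4 and 86.2 (0.10), so that the direction was not shared.

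Mc1r had the lowest ratio of the 10 genes, and both of its probe sets showed it. With 1435393_at it read 204 in the wild-type and 108 in the transgenic pool, a log2 ratio of -0.92, so that the transgenic signal was 52.8% of the wild-type one. With 1422069_at it read 65.7 and 37.1, a log2 ratio of -0.82, or 56.5%. The probe sets thus lay 0.10 apart on the log2 scale and were 1.89-fold and 1.77-fold lower. Both stayed short of 2-fold as scaled here, whereas equal medians took the brighter one past it, to -1.06. Tyr, Tyrp1, Gpnmb, Slc45a2 and Kit, by contrast, each had probe sets on both sides of 1.

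Kit, the other receptor, is shared with mast cells. It read 102 and 79.1 with 1452514_a_at (log2 ratio -0.37, 1.29-fold lower) and 32.5 and 34.4 with 1415900_a_at (0.08). Most mast cell genes lay near the floor on both arrays. Of the mast cell list, 3 of 10 genes exceeded the floor on both arrays, and the mast cell proteases Cpa3 (1.10 and 14.4) and Cma1 (6.30 and 11.2) were under it in the wild-type pool. The protease gene Tpsb2 went the other way, at 12.1 and 3.20 at its brightest probe set. Mcpt4 and Tpsab1, also protease genes, were under the floor on both arrays. The mast cell list summed to 523 and 594, most of it from Srgn, a granule proteoglycan also made by other cells, at 451 and 494.

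Mitf was the member with the highest ratio. It read 685 and 748 with 1455214_at, a log2 ratio of 0.13, and 98.4 and 132 with 1422025_at, a log2 ratio of 0.42. Both probe sets were thus higher on the transgenic array, by 1.09-fold and 1.34-fold, although under equal medians the brighter one gave -0.02. Which Mitf isoforms each probe set reads is not stated in the annotation used here.

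**Figure D1:**
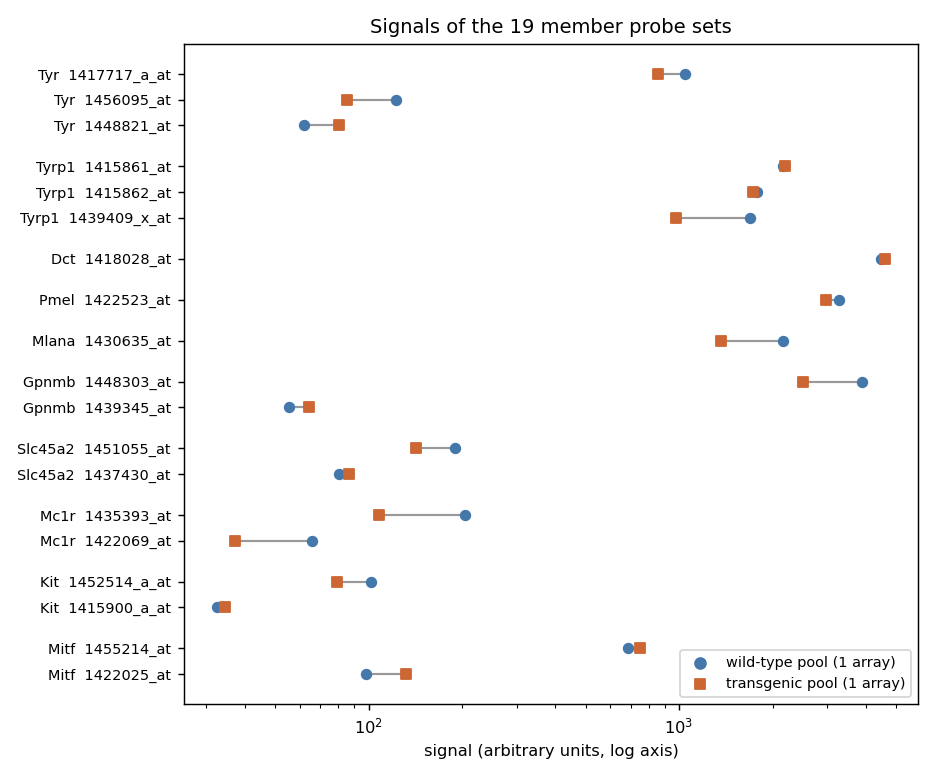
Signal of each of the 19 member probe sets (arbitrary units, log axis), with circles for the wild-type pool and squares for the transgenic pool, 1 array each and hence no error bars; probe sets of a gene are stacked with the brightest on top. Both Mc1r probe sets and the Mlana probe set sit to the left on the transgenic array, Dct and 2 Tyrp1 probe sets nearly coincide, and both Mitf probe sets sit to the right.

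Against all genes, the members held no 2-fold difference but several smaller ones in the lower direction. A gene was counted as 2-fold apart when both signals exceeded the floor at its brightest probe set. Of the members, 0 of 10 were at least 2-fold lower, beside 1.58% of the 11565 genes with both signals past the floor (1 of 10, Mc1r, with equal medians), and 0 of 10 were at least 2-fold higher, beside 1.60%. At 1.5-fold, 3 of 10 were lower, namely Mc1r, Mlana and Gpnmb, beside 6.78% of all genes. In the 6759 genes whose brighter signal exceeded 100, to which all 10 members belong, that share was 3.17%, and the 2-fold shares were 0.725% lower and 0.355% higher. At 1.5-fold 0 of 10 were higher, beside 6.36% of all genes and 2.41% of those over 100. The count of 3 lower at 1.5-fold depended on the settings. Mlana and Gpnmb fell short of 1.5-fold with equal spiked controls, at -0.47 and -0.44. Gpnmb also did so with the mean over probe sets, at -0.21. The share of all genes on each side moved with the scaling: 185 genes were 2-fold higher and 183 lower as scaled here, 115 and 296 with equal medians, 314 and 103 with equal spiked controls, 140 and 230 after quantile normalization, and 121 and 255 after loess.

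The median log2 ratio of the members was -0.32, with 7 of 10 ratios under 1, whereas the median was 0.00 over all genes above the floor and -0.01 over those over 100. The members were chosen with these results known, so neither their counts nor their median supports a direction. Equal medians moved the median of all genes to -0.14 and equal spiked controls moved it to 0.19, and the members' median followed, at -0.47 and -0.13. The central 90% of genes over 100 had log2 ratios from -0.48 to 0.45. Mc1r, Mlana and Gpnmb lay below that range, and the other 7 members lay inside it.

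In order from the lowest ratio, the members ran from Mc1r (-0.92) through Mlana (-0.66), Gpnmb (-0.63), Slc45a2 (-0.42), Kit (-0.37), Tyr (-0.28), Pmel (-0.14), Tyrp1 (0.02) and Dct (0.05) to Mitf (0.13). The only available spread is technical, the SD of log2 ratios among probe sets of the same gene. It was 0.24 in the bright, 0.39 in the middle and 0.48 in the dim tertile of genes. The bright tertile held 7 members, and Mc1r, Kit and Slc45a2 fell in the middle one. The largest gap between neighbours in the order was 0.26, between Mc1r and Mlana, and the next was 0.21, so that neighbours did not separate beyond the spread of Mc1r's tertile. Mc1r and Mitf, the ends of the order, differed by 1.05 on the log2 scale, which the ordering itself selects for. Dct and Tyrp1 lay near the upper end, so the ordering selects for their pairs with Mc1r too. The ratio of Mc1r to Dct was 1.95-fold lower in the transgenic pool, and that of Mc1r to Tyrp1 was 1.91-fold lower. That of Mc1r to Tyr was 1.56-fold lower and that of Mlana to Pmel 1.43-fold lower. Such ratios within an array do not move with a common scaling factor, but probe sets of a single member lay nearly as far apart, by 0.90 for Tyr, 0.84 for Gpnmb and 0.81 for Tyrp1 on the log2 scale.

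**Figure D2:**
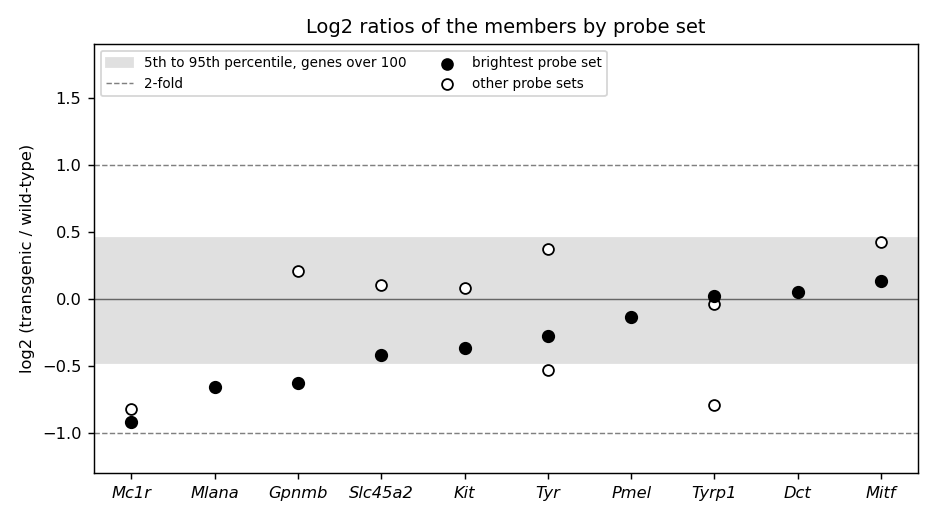
Log2 ratio of transgenic over wild-type for each member, ordered by its brightest probe set (filled); open circles are its other probe sets, the grey band is the 5th to 95th percentile of genes over 100 (-0.48 to 0.45), and dashed lines mark 2-fold. Mc1r is the gene whose 2 probe sets both lie under the band, at -0.92 and -0.82.

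**Figure D3:**
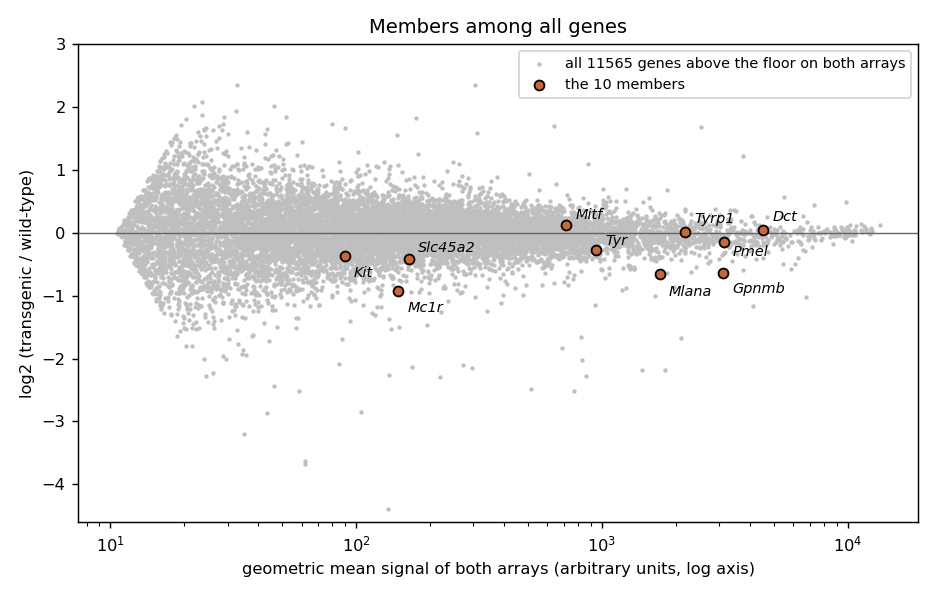
Log2 ratio against the geometric mean signal of both arrays (log axis) for the 11565 genes with both signals past the floor (grey) and the 10 members (coloured), each at its brightest probe set; 1 gene at 8.94 lies outside the axis. Mc1r, Mlana and Gpnmb lie at the lower edge of genes of like brightness, and the other members lie within the cloud.

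Other genes of pigmentation were read from lists that hold melanosome channels and transporters, melanosome biogenesis and transport, extracellular signals with their receptors, and transcription factors. Of 57 listed genes 55 were on the array by name and 52 exceeded the floor on at least 1 array, with 26 ratios under 1 and 26 over 1 and a median log2 ratio of 0.01, which equal medians moved to -0.13 and equal spiked controls to 0.20. Of the 48 with both signals past the floor, 2 reached 2-fold lower (4.17%, beside 1.58% of all genes) and 0 higher (beside 1.60%). At 1.5-fold 4 of 48 were lower (8.33%, beside 6.78% of all genes) and 1 was higher (beside 6.36%).

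The 2 genes past 2-fold serve the melanosome, and which cells of the pools their RNA came from was not tested. Rab32, a small GTPase that with Rab38 carries tyrosinase and Tyrp1 to the melanosome, read 189 and 83.6, a log2 ratio of -1.18 at its only probe set. Mfsd12, needed for import of cysteine into melanosomes and lysosomes, read 42.0 and 19.6 (-1.10), also at a single probe set. Rab38 itself read 910 and 591 with 1439628_x_at (-0.62), whose suffix marks probes that may bind other transcripts. With 1417700_at Rab38 read 713 and 449 (-0.66), so that its probe sets shared direction and size.

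Other genes of organelle transport were less uniform. Myo5a, the myosin motor that carries melanosomes along actin, read 335 and 219 (-0.61) at its brightest probe set but 256 and 248 (-0.05) and 267 and 231 (-0.21) at others. Bloc1s3, a subunit of a complex that sorts cargo to melanosomes, read 78.7 and 104 (0.40). The list of 21 biogenesis and transport genes had a median of -0.08, with 12 ratios under 1.

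Among the channels and transporters, 5 of 7 ratios were under 1, with a median of -0.16. Trpm1, a cation channel gene of melanocytes, read 417 and 347 (-0.26), 193 and 154 (-0.32) and 152 and 82.2 (-0.89) at its 3 brighter probe sets, and 24.9 and 29.5 (0.24) at a dim one. Tpcn2, an endolysosomal channel, read 30.3 and 23.5 (-0.37). Atp7a, the copper pump that supplies tyrosinase with its metal, went the other way, at 373 and 526 (0.50) and at 275 and 390 (0.50) with its other probe set.

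The signals that reach melanocytes were mixed. Kitl, the ligand of Kit, read 349 and 237 (-0.56) at its brightest probe set but 91.7 and 81.3 (-0.17) at the next, with log2 ratios of 0.02 and -0.04 at the dim ones. Pomc, the precursor of the Mc1r agonist, was dim at 24.1 in the wild-type pool and 1.21-fold lower in the transgenic one (-0.27), and Asip, which encodes the agouti antagonist of Mc1r and is named a in the annotation, read 2.30 and 14.1, of which the wild-type signal was under the floor. Pcsk1, a protease that cuts the Pomc product, read 18.9 and 35.1 (0.89). Atrn, which agouti signalling requires, read 115 and 143 (0.31) at its brightest probe set, and the Wnt receptor gene Fzd4 read 110 and 138 (0.33). The peptide ligand gene Edn3 read 20.1 and 2.30, at least 1.91-fold lower against the floor, and its receptor Ednrb read 433 and 488 (0.17), 53.2 and 91.3 (0.78) and 44.1 and 75.7 (0.78). All 3 Ednrb probe sets were thus higher in the transgenic pool, whereas both Mc1r probe sets were lower.

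Of 12 transcription factors above the floor on at least 1 array, 8 had a ratio over 1 and the median was 0.10. Sox10, which activates Mitf and is shared with Schwann cells, read 63.6 and 42.9 (-0.57), and a dimmer probe set gave -0.73. Tfeb, a relative of Mitf, read 77.7 and 57.4 (-0.44), and Tfe3, another relative, read 153 and 180 (0.24). Creb1, the factor that acts on the cyclic AMP response element shown above, read 230 and 293 (0.35) at its brightest probe set, 109 and 114 (0.06) and 35.9 and 52.9 (0.56) at the next ones, and 24.9 and 21.7 (-0.20) at a dim one.

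Markers of the other cells in the pools were read beside these values. Genes of Schwann cells and nerve had 4 of 6 ratios under 1 and a median log2 ratio of -0.51, with a summed signal of 1367 and 1449 that came mostly from Erbb3 (1115 and 1263). S100b, a calcium-binding protein gene that melanocytes also express, read 45.3 and 21.7 (-1.06), the neurotrophin receptor gene Ngfr read 54.2 and 27.7 (-0.97), and Fabp7, of glial precursors, read 47.8 and 27.3 (-0.81). Of that list Gap43, Cdh19 and Sox2 were under the floor on both arrays. Erbb3 (0.18) and the myelin gene Mbp (39.1 and 49.2, 0.33, with other probe sets on both sides of 1) read higher, so that the list did not go one way. The part of these cells in the member values and in that of Sox10 was not tested.

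The hair matrix and cortex differed little, with 10 of 10 ratios over 1, a median of 0.04 and a range up to 0.27 for Krt35, a hair keratin. Their summed signal was 33915 and 36749, and equal medians moved all genes by more than this median. The proliferation gene Mki67 read 564 and 568. Dermal papilla genes, from the mesenchyme that supplies Kitl and agouti protein, had a median of 0.01 over 9 genes and a summed signal of 266 and 264. Of these 9, 4 ratios were under 1 and 5 over 1, and 5 genes exceeded the floor on both arrays. The dim Wnt agonist gene Rspo3 was past 2-fold (14.7 and 34.9, 1.25), and Hhip, also dim, read 11.9 and 19.4 (0.70). Sox18 went the other way, at 26.2 in the wild-type pool and under the floor in the transgenic one, at least 2.50-fold lower. Lepr (18.4 and 9.80) and Fgf7 (17.4 and 9.80) were also under the floor in the transgenic pool at their brightest probe sets. The other Fgf7 probe set read 4.90 in the wild-type pool, under the floor, and 15.7 in the transgenic one. Corin, a papilla protease that limits agouti signalling, read 65.7 and 70.8 (0.11). Interfollicular epidermis genes had a median of 0.59 over 5 genes, with the suprabasal keratin gene Krt77 past 2-fold (16.6 and 63.8, 1.94) and the basal Krt14 at -0.18, and summed to 8674 and 8000. The part of these lists in the member values was not tested.

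**Figure D4:**
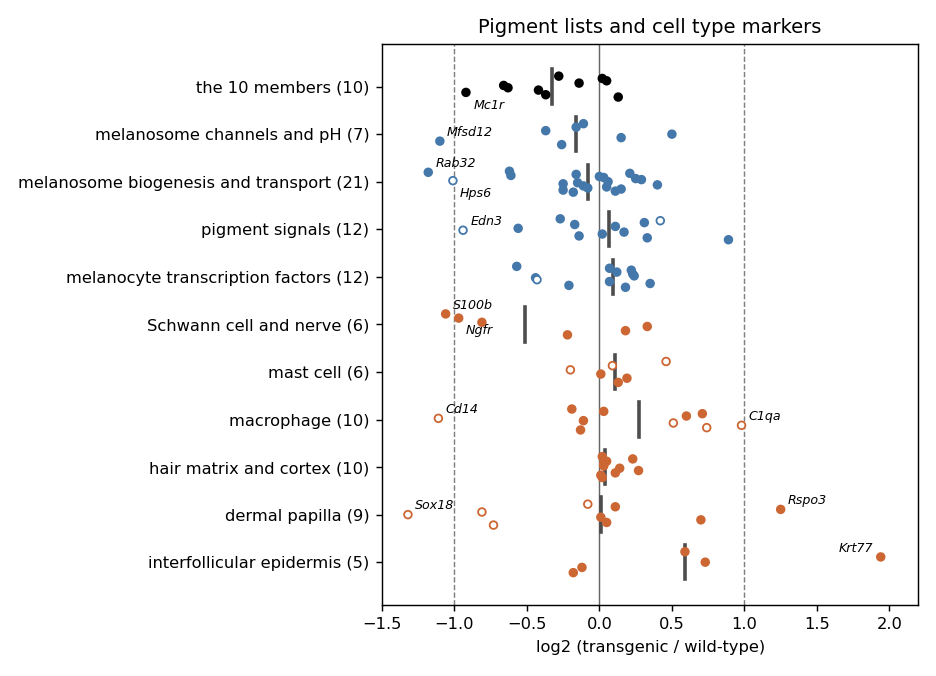
Log2 ratios at the brightest probe set for the 10 members (black), the pigment lists (blue) and cell type markers (orange), with the number of genes above the floor on at least 1 array in parentheses; open circles are genes under the floor on 1 array, whose ratio is to the floor, vertical bars are medians and dashed lines mark 2-fold. The members' median (-0.32) and that of the Schwann cell and nerve list (-0.51) lie to the left, and the hair matrix list clusters at 0.04.

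**Figure D5:**
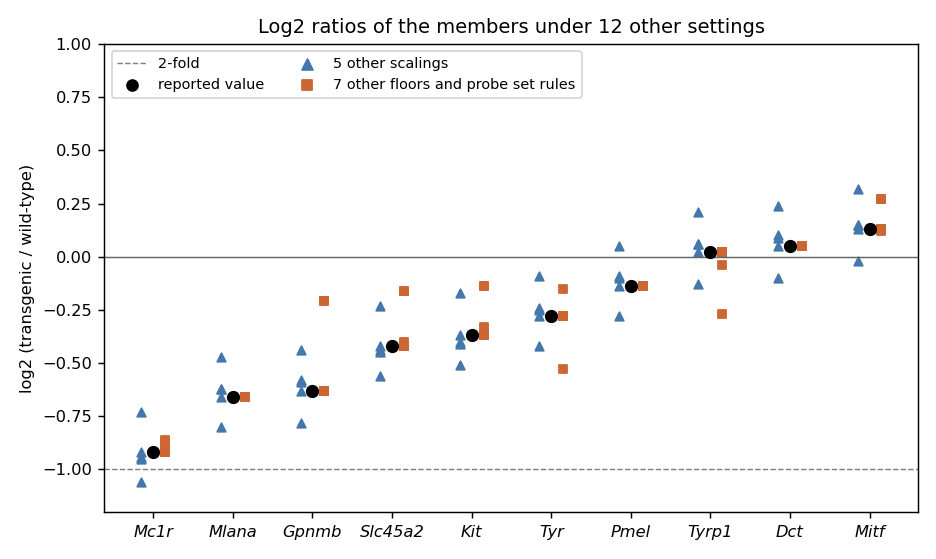
Log2 ratios of the members as reported (black circles), under 5 other scalings (triangles) and under 7 other floors or probe set rules (squares). Mc1r stays between -1.06 and -0.73 and Mlana between -0.80 and -0.47, while Tyrp1, Dct, Pmel and Mitf cross 0 under some settings.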

How the data were processed

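The authors deposited 1 linear intensity per probe set and array. The values show that these intensities had been scaled to a 2% trimmed mean of 100 on each array, which hides any shift common to the whole transcriptome. The summary algorithm is not given in the sources used here. Array type comes per the file headers, and per the labels the RNA was prepared by the Affymetrix procedure.

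Of 45101 probe sets, 64 controls were dropped. Columns were rescaled to equal 2% trimmed means, and values under the floor (40th percentile, 10.5) were set to it. A gene took the values of its probe set with the highest mean. Of 19 member probe sets, 19 kept their symbol in RefSeq (GRCm38.p6). All member probe sets are named. From other lists the genes past 2-fold are named, and up to 4 with the largest ratios, plus fixed ligands, receptors and Sox10. Further genes, such as Cd68, Csf1r, Cd14, C1qa, C1qb, Mrc1, Srgn, Erbb3, Krt14, Mki67, Sox18, Lepr, Fgf7 and the mast cell proteases, and Xist, Tcf25 and Tubb3, were chosen after their values were seen. Members and lists were chosen with earlier results of these data known.

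The steps were tested on simulated data. Settings varied were the scaling, the floor, a pseudocount and the probe set rule. Python 3.11.15, pandas 2.3.3, scipy 1.17.1 and statsmodels 0.14.6 were used.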

Additional observations from a re-analysis of the deposited data

How the results depend on the processing

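The count of members at least 2-fold lower, 0 as reported, became 1 with equal medians, where Mc1r reached -1.06, and 3 at a threshold of 1.5-fold. It stayed 0 under the other 11 settings and at 3-fold, and the count of members 2-fold higher was 0 in each case. The members' median ran from -0.47 to -0.13. Tyr, Mlana, Gpnmb, Slc45a2, Mc1r and Kit kept a ratio under 1 under the settings that gave a value (12, and 11 for Kit, whose probe sets both carry the suffix _a_at and drop out with it), whereas Tyrp1, Dct, Pmel and Mitf changed sign in some, as did the median of the other pigment genes (-0.13 to 0.20). Shifts beyond the spread among probe sets were those of Tyrp1 (-0.27) and Gpnmb (-0.21) with the mean over probe sets, Gpnmb (-0.21) with the median over them, and Tyr (-0.53) without probe sets that can match several transcripts. No paired analysis was possible because each group is 1 array and the labels give no replicate numbers, and no array could be left out for the same reason. Precision is limited by there being 1 array per group.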

Other observations

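The genes on either side of Mc1r in RefSeq order read unlike it. Tcf25, the neighbour before it, read 955 and 843 at its brightest probe set, a log2 ratio of -0.18, with 0.01, 0.41, 0.59 and -0.35 at the others. Tubb3, the neighbour after it, which encodes a neuronal tubulin, read 157 and 205 (0.38) at its only probe set.

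Upstream windows were matched for 48 of the other pigment genes. The M-box core TCATGTG was found in 4 of them, Hps1, Slc24a5, Slc7a11 and Trpm1 (8.33%, beside 3.72% of all genes with a window). The letters CACGTG were found in 11 (22.9%, beside 6.86% of all genes), among them Mlph, Rab27a, Atp7a, Hps3 and Trpm1. Trpm1 held both motifs, which the arrays did not test for binding.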
